A study of Mus musculus with 6 samples.

Results

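The genes described here encode the subunits and the dedicated assembly factors of the proteasome in a macrophage-like mouse line, RAW264.7, with and without molybdenum disulfide (MoS2). Members are the protein-coding genes of the GENCODE M21 annotation whose symbol begins with Psma, Psmb, Psmc, Psmd, Psme, Psmf or Psmg followed by a digit. Psmb8, Psmb9, Psmb10, Psme1 and Psme2, the interferon-inducible subunits and activators, were left out by the rule and are treated below as related genes. The rule gave 45 of the 55401 genes in the count table. Of these, 44 had enough reads to be tested; Psmb11, a subunit known from the thymus, had 1 count over all 6 libraries. The family was selected on its fold changes in this same comparison, which were already known. These fold changes and calls are therefore a description of the MoS2 response, and nothing is inferred from them about the family as against other genes.

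RNA sequencing of bulk cultures gave 3 libraries of cells that received phosphate-buffered saline (PBS), called Control, and 3 of cells that received MoS2 at 6.25 µg/ml. Both groups were labelled wild type. The sources used here do not give the duration of exposure. Whether the replicates came from separate cultures is not stated either, and a p-value here reflects the variation among these libraries alone, possibly technical variation.

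The proteasome degrades proteins tagged with ubiquitin. Its barrel-shaped 20S core is built from alpha rings, which gate the entrance, and beta rings, which hold the proteolytic sites. A 19S cap sits on the end of the barrel: ATPases in its base unfold the substrate, and its lid removes the ubiquitin. Assembly chaperones put the particles together and then leave. In macrophages proteasomes also produce peptides for presentation to T cells.

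Library totals ranged from 15767618 to 18412762 counts. The composition of the libraries differed between the groups: the 100 most abundant genes took 17.3% to 18.3% of the counts in Control and 37.4% to 38.9% in MoS2. Levels are given as CPM, the counts of a gene per 1e+06 counts of library size. The library size was scaled by the trimmed mean of M-values (TMM), a method that aligns the bulk of the genes; the TMM factors were 1.31 in each Control library and 0.743 to 0.783 in MoS2. Scaling by library totals alone instead moved the median log2 fold change of all tested genes by -0.77, so both scalings are given wherever a direction depends on them. Of 10 macrophage markers, 9 were tested by the edgeR test described below, with 2 (Cd68 and Itgam) higher in MoS2 and 4 (Csf1r, Lyz2, Spi1 and Fcgr1) lower. Under library totals the same 2 were higher and 7 lower, with Adgre1 at -0.71, Ptprc at -0.74 and Cd14 at -0.86. Of all genes 38.3% were higher and 42.4% lower under TMM, and 18.0% and 67.7% under library totals. The summed level of the 10 ran from 7657 to 7836 CPM in Control and from 5196 to 5450.1 CPM in MoS2. As a plain share of all counts, with no TMM factor, they took on average 1.01% in Control and 0.405% in MoS2. The remaining macrophage marker, Mertk, was nearly absent. Of 20 markers of T cells, B cells, fibroblasts, epithelial cells and germ cells, 8 had no count in any library (among them Cd3d, Cd8a, Ms4a1, Col3a1, Krt18, Cdh1 and Dazl), and the markers of any 1 of these cell types summed to at most 0.738 CPM. The part of the macrophage markers' shift in the results below was not tested.

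Proteasome mRNA made up a larger share of the MoS2 libraries. The levels of the 45 genes summed to 3816, 3480.1 and 3374 CPM in the Control libraries and to 8819, 8536 and 9470.1 CPM in the MoS2 libraries. As a plain share of all counts, with no TMM factor, the same genes took 0.464% ± 0.0294 in Control and 0.683% ± 0.0182 in MoS2 (SD, n = 3). On either scale every MoS2 library lay above every Control library. Much of the rise in the plain share came from Psmd8. This gene gave 8500, 7941 and 7381 of the members' 88012, 80130 and 75076 counts in the Control libraries. In the MoS2 libraries it gave 21332, 20272 and 25130 of 110436, 105315 and 129472 counts. The larger share is thus not a rise of every member: under library totals 25 were called higher and 12 lower, as given below. In bulk samples such shares measure neither the number of cells nor the amount of RNA per cell.

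By edgeR's quasi-likelihood test with Benjamini-Hochberg adjustment over all 12972 tested genes, 40 of the 44 tested members were higher in MoS2, 3 were lower and 1 did not pass the threshold of 0.05. Of all tested genes 80.7% were called, 38.3% higher and 42.4% lower. The 3 lower members were Psme3, Psme4 and Psme2b, and the member that did not pass was Psmc3ip. The 44 members had a median log2 fold change of 1.04 with an interquartile range of 0.55 to 1.36, beside a median of -0.08 and an interquartile range of -0.95 to 0.75 over all tested genes. A call together with a log2 fold change of at least 1 was reached by 24 members, against 19.5% of all genes. The 3 MoS2 libraries lay entirely above the 3 Control libraries for 41 members and entirely below for 3. The corresponding shares of all genes were 38.8% and 43.1%.

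With library totals alone, 25 members were higher, 12 were lower and 7 did not pass, where 18.0% of all genes were called higher and 67.7% lower. The 12 were Psmc3, Psmc4, Psmd6, Psmd7, Psmg1, Psmg2, Psmg3, Psmf1, Psmc3ip, Psme2b, Psme3 and Psme4. The 7 were Psma1, Psma4, Psma8, Psmb5, Psmc5, Psmd9 and Psmd10. The members' median log2 fold change was then 0.26 and that of all genes -0.85. The distance between these medians was 1.11 under library totals and 1.11 under TMM. A change of scaling moves every gene by nearly the same amount, so this distance could hardly differ. Removing each library's trend of level on exon length and GC content left 33 members higher, 3 lower and 8 not called. Of all genes 80.4% were then called, 40.2% in each direction. The median of the members was 0.84 after that step and the distance to the median of all genes also 0.84.

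**Figure D1:**
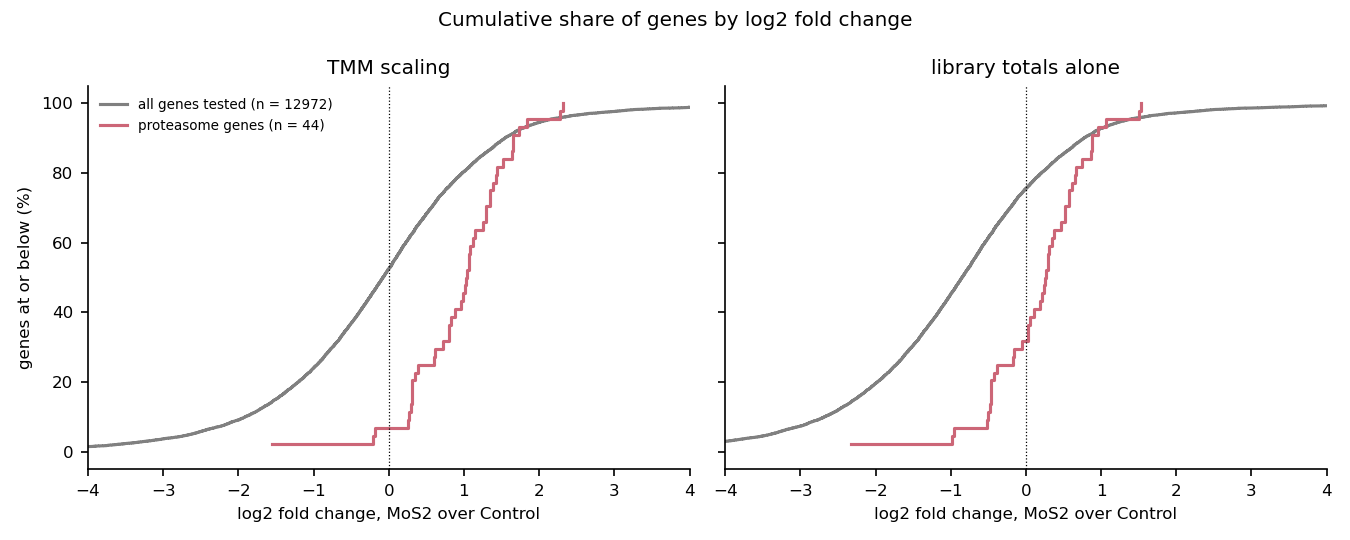
Cumulative share of genes (vertical axis, percent) by log2 fold change of MoS2 over Control (horizontal axis), with 1 panel for TMM scaling and 1 for library totals alone. At the median the curve of the tested members lies to the right of the curve of all tested genes in each panel (1.04 and -0.08 under TMM). The members reach no further than 2.31 under TMM, while the curve of all genes has longer tails on both sides.

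All 31 constitutive subunits of the core and cap were called higher under TMM, where 38.3% of all genes were higher and 42.4% lower. The median log2 fold change of the 31 was 1.25. After removal of the length and GC trend 28 of them were called higher, and Psmb5, Psmc4 and Psmd7 did not pass. Of all genes 40.2% were called higher and 40.2% lower in that setting. The 14 genes of the 20S core had a median of 1.37 and the 17 genes of the 19S base and lid a median of 1.05, an order that turned to 1.15 and 1.22 once the length and GC trend was removed. The 13 tested members outside these subunits (chaperones, activators, an inhibitor, a germline variant and 2 others) had a median of 0.31, with 9 higher and 3 lower. That median was -0.46 under library totals and -0.08 with the length and GC trend removed, where 5 were higher, 3 lower and 5 not called. Under library totals 23 of the 31 subunits were higher and 4 lower (Psmc3, Psmc4, Psmd6 and Psmd7), while 2 of the 13 others were higher and 8 lower. Of all genes 18.0% were called higher and 67.7% lower under library totals, and the 13 others lay near these shares. The core and cap subunits together took 0.410% ± 0.0286 of the counts in Control and 0.644% ± 0.0181 in MoS2 (SD, n = 3). Psmd8 is among these subunits and, as given above, supplied much of this rise. The 14 members outside the core and cap took 0.0542% ± 0.000789 and 0.0391% ± 0.000261 by the same measure, in the opposite order. With TMM, however, their summed level was 415 ± 6.83 CPM in Control and 512 ± 15.3 CPM in MoS2. The 2 sets of genes were formed from textbook roles with the fold changes known, so their separation is a description.

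**Figure D2:**
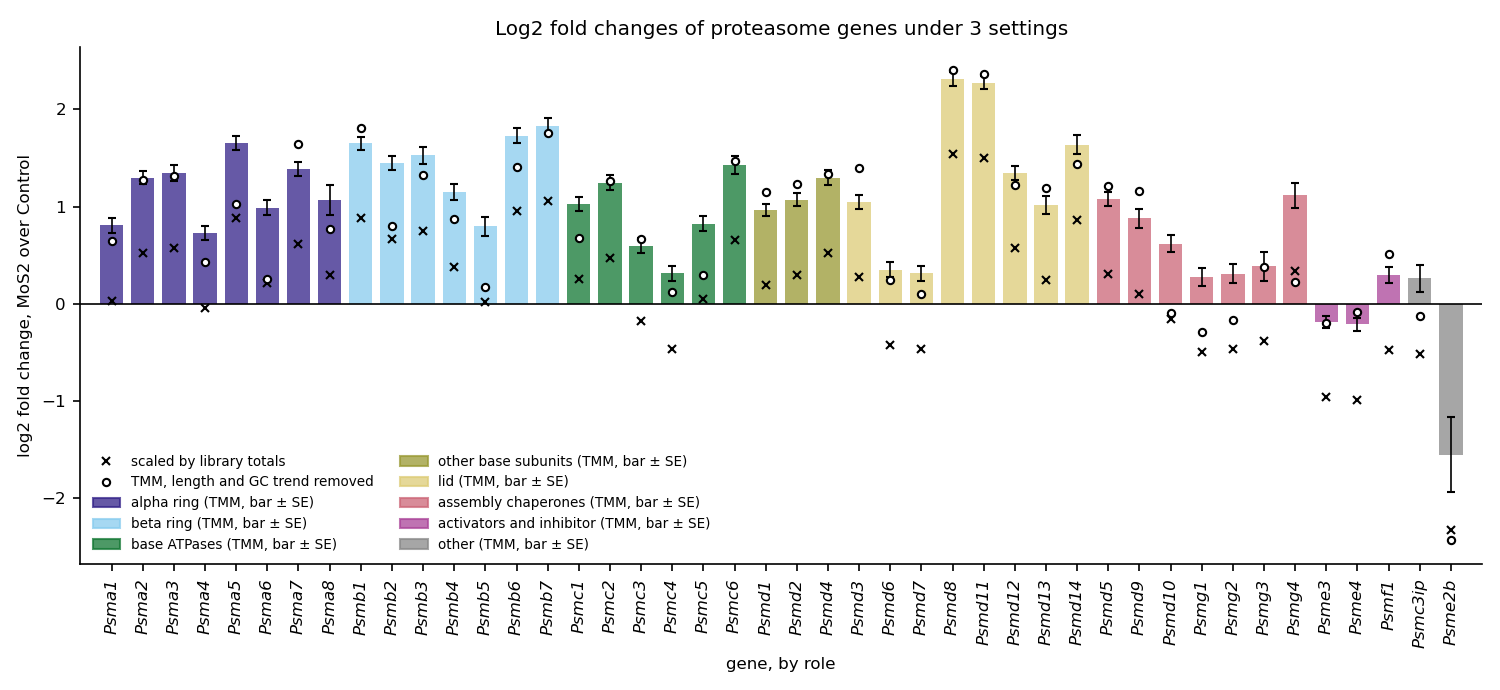
Log2 fold change of MoS2 over Control (vertical axis) for each tested member, ordered by role along the horizontal axis, under TMM scaling (with SE), library totals alone, and after removal of the length and GC trend. Psmd8 and Psmd11 stand highest at 2.31 and 2.28, and Psme2b lowest at -1.55.

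The promoters of 6 members with different responses are shown. Psmd8 and Psmd11 had the largest fold changes, and Psmb5 and Psmb6 encode catalytic subunits that differed in size of change. Psmc4 was among the subunits that changed least. Psme3 was lower, though less so than Psme2b, the lowest member at -1.55, which is not shown. Each sequence is the RefSeq window of the mouse build GRCm38.p6 from 250 bases before to 50 bases after the annotated start, read 5′ to 3′ in the direction of the gene. Capitals mark the letters TGACNNNGC of an antioxidant response element, to which the proteasome regulator Nfe2l1 can bind, or the letters CCGGAAG bound by ETS family factors, in either orientation (CTTCCGG is the second in reverse).
Psmd8, chr7:29180624-29180923, minus strand: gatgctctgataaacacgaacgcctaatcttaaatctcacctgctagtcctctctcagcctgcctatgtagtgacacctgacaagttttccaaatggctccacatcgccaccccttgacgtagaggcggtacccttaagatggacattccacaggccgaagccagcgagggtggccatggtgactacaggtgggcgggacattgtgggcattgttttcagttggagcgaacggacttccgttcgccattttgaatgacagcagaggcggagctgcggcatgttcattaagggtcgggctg
Psmd11, chr11:80428365-80428664, plus strand: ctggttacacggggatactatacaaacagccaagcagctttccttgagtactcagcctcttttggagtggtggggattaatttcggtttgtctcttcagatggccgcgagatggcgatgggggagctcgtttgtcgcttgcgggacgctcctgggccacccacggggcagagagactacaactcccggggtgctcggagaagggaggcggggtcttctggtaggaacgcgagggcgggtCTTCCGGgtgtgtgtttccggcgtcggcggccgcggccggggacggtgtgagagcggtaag
Psmb5, chr14:54617946-54618245, minus strand: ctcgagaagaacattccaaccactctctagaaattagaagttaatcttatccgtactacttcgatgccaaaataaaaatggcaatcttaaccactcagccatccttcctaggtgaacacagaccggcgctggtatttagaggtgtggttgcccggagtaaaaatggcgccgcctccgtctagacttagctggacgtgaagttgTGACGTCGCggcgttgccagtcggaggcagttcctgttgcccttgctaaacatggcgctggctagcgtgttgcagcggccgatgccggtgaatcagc
Psmb6, chr11:70525107-70525406, plus strand: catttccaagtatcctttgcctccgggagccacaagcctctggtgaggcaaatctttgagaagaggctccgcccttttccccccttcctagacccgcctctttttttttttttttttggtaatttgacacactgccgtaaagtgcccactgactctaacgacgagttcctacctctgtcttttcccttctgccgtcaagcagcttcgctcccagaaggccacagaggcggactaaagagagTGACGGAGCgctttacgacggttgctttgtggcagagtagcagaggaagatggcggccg
Psmc4, chr7:28050043-28050342, minus strand: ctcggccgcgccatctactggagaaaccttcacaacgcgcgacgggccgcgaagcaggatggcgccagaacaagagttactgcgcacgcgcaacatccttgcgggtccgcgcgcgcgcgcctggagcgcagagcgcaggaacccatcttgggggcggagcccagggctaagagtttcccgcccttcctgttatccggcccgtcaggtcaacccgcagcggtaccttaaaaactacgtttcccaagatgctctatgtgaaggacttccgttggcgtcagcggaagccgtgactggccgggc
Psme3, chr11:101315963-101316262, plus strand: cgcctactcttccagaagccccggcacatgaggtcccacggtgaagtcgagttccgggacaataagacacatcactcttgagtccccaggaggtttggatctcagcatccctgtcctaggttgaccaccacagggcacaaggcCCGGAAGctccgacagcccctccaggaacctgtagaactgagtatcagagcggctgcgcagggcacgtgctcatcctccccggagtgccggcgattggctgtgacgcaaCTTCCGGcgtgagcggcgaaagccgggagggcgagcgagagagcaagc
Psmb5 holds TGACGTCGC starting 47 bases before its start site, and Psmb6 holds TGACGGAGC starting 9 bases before. Psmd11 has the ETS letters 11 bases before the start, and Psme3 has them at 2 places. Neither set of letters occurs in the windows of Psmd8 or Psmc4.

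Promoter windows were at hand for 37 of the 45 members. Psma8, Psmb1, Psmb2, Psmb7, Psmc3, Psmd3, Psmd7 and Psmg2 had none. TGACNNNGC occurred in the windows of 6 members (Psmb5, Psmb6, Psmc6, Psmd9, Psmd12 and Psme4), or 16.2%, beside 14.0% of all 27025 genes with a window and 17.0% of the tested genes. CCGGAAG occurred in 15 members, or 40.5%, beside 9.93% of all genes and 21.3% of tested genes. CCAAT, the letters bound by the factor NF-Y, occurred in 37.8% of the members, 41.1% of all genes and 43.3% of tested genes. Both strands were searched in each case. The 6 members with TGACNNNGC had log2 fold changes from -0.21 to 1.73 with a median of 1.11. The 30 tested members with a window that lacked it ranged from -1.55 to 2.31 with a median of 1.02, a range that contains the first. A match describes the letters in the window and not binding.

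The alpha ring forms the outer gates of the 20S core. Its 7 common genes, Psma1 to Psma7, were each called higher, beside 38.3% of all genes, with log2 fold changes from 0.73 to 1.66. Psma5 (ENSMUSG00000068749.9, chromosome 3, 108256926 to 108279974) gave the largest change of the ring (coordinates are of GRCm38 throughout), from 101, 87.8 and 89.2 CPM in the Control libraries to 289, 278 and 310.0 CPM in the MoS2 libraries, a log2 fold change of 1.66 ± 0.07 (SE). Its lowest MoS2 library stood far above its highest Control library. Psma4 (ENSMUSG00000032301.13, chromosome 9, 54950790 to 54958030) gave the smallest, from 94.2, 86.0 and 85.7 CPM to 142, 141 and 158 CPM, or 0.73 ± 0.07 on the log2 scale. The groups of Psma4 did not overlap either, but under library totals its log2 fold change was -0.047 and did not pass. Psma7, Psma3 and Psma2 lay close together at 1.39, 1.35 and 1.30, followed by Psma6 at 0.99 and Psma1 at 0.81. Psma8 encodes a testis-specific relative of Psma7 and was counted at only 4.34, 4.39 and 4.13 CPM in Control and 9.58, 8.27 and 9.07 CPM in MoS2. Reads of so similar a pair may be divided between them by the counting, so the Psma8 values are uncertain.

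The beta rings hold the catalytic sites, and as a role group they had the highest median log2 fold change, 1.53 over 7 tested genes (0.75 under library totals). Psmb6 carries the caspase-like site, Psmb7 the trypsin-like site and Psmb5 the chymotrypsin-like site. Psmb7 (ENSMUSG00000026750.6, chromosome 2, 38588036 to 38644087) measured 58.9, 47.4 and 49.2 CPM in Control and 179, 183 and 193 CPM in MoS2, a log2 fold change of 1.83 ± 0.08. For Psmb6 (ENSMUSG00000018286.6, chromosome 11, 70525367 to 70527858) the Control libraries gave 153, 134 and 126 CPM, the MoS2 libraries 449, 435 and 483 CPM, and the log2 fold change was 1.73 ± 0.08. In both genes the groups were far apart beside the spread within them.

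Psmb5 (ENSMUSG00000022193.7, chromosome 14, 54614119 to 54618022) moved less, from 72.1, 58.8 and 61.2 CPM to 106, 100.4 and 128 CPM, a log2 fold change of 0.80 ± 0.10. Its groups were separate, though the third MoS2 library was above the other two by more than those differed. The call of Psmb5 was lost under library totals, at 0.02, and after removal of the length and GC trend, at 0.18. Within each library, the level of Psmb6 per kilobase of exon was 1.02, 1.09 and 0.988 times that of Psmb5 in Control and 2.04, 2.08 and 1.81 times in MoS2. This ratio does not depend on the scaling between libraries, and its groups did not overlap. The structural beta subunits Psmb1, Psmb3, Psmb2 and Psmb4 had log2 fold changes of 1.65, 1.53, 1.44 and 1.15, each called also under library totals. Exons of Psmb7 share bases with the neighbouring gene Nek6 on the opposite strand. Whether the counting used strand is not stated, so reads from that stretch cannot be assigned with certainty.

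**Figure D3:**
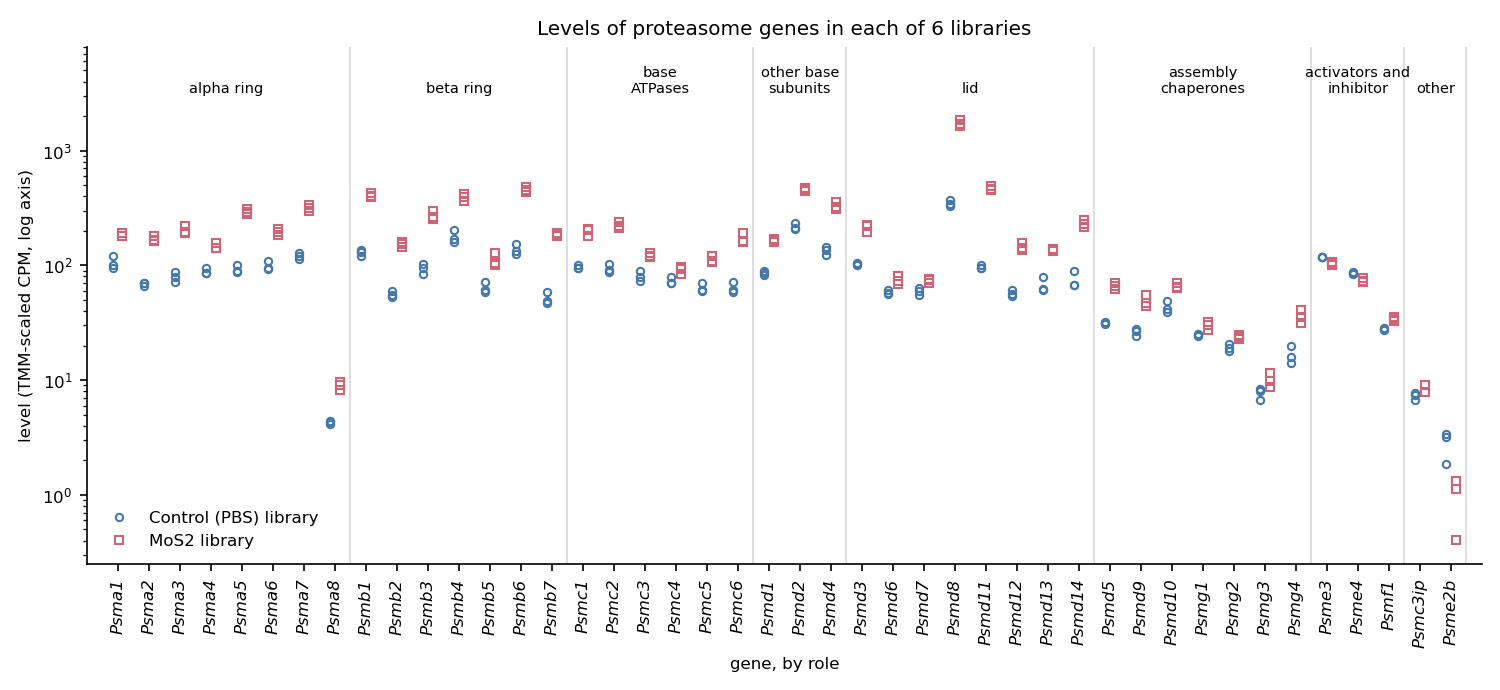
Level of each tested member (TMM-scaled CPM, log axis) in the 3 Control and 3 MoS2 libraries, 1 point per library, with genes ordered by role along the horizontal axis. The MoS2 points lie above the Control points for 41 of the 44 genes and below for Psme3, Psme4 and Psme2b; Psmd8 reaches 1838 CPM.

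The 6 ATPases of the base, Psmc1 to Psmc6, form the ring that unfolds substrates. All 6 were called higher, beside 38.3% of all genes. The median log2 fold change of the 6 was 0.93, and 0.15 under library totals, beside -0.08 and -0.85 over all tested genes. Psmc6 (ENSMUSG00000021832.8, chromosome 14, 45329788 to 45349705) had the largest change, with 71.8, 58.9 and 60.8 CPM in Control, 164, 159.8 and 192 CPM in MoS2 and a log2 fold change of 1.43 ± 0.09. Psmc4 (ENSMUSG00000030603.16, chromosome 7, 28041707 to 28050101) had the smallest, with 79.7, 69.7 and 70.1 CPM, 92.6, 84.3 and 95.9 CPM and 0.31 ± 0.08. The lowest MoS2 library of Psmc4 was only a little above its first Control library, and by library totals Psmc4 was called lower at -0.46. After removal of the length and GC trend it did not pass, at 0.12. Psmc3 also changed direction, from 0.60 under TMM to -0.17 under library totals, both called. The other ATPases, Psmc2, Psmc1 and Psmc5, had log2 fold changes of 1.25, 1.03 and 0.83. Although the 6 proteins occupy equivalent places in 1 ring, their log2 fold changes ran from 0.31 to 1.43.

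Psmd1 and Psmd2 are the large scaffold proteins of the base, and Psmd4 is a ubiquitin receptor. These 3 genes responded within a narrow band. Psmd4 (ENSMUSG00000005625.15, chromosome 3, 95032694 to 95042614) measured 143, 135 and 122 CPM in Control and 321, 308 and 357 CPM in MoS2, or 1.30 ± 0.08 on the log2 scale. Psmd1 (ENSMUSG00000026229.17, chromosome 1, 86064387 to 86139151) measured 88.5, 81.9 and 85.2 CPM and 160.4, 171 and 166 CPM, or 0.96 ± 0.06, and Psmd2 had a log2 fold change of 1.07. Their groups were separate, and all 3 calls held under library totals at 0.52, 0.19 and 0.30.

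The lid subunits had a wide range of fold changes, from 0.31 for Psmd7, close to that of the ATPase Psmc4, to 2.31 for Psmd8. Psmd8 (ENSMUSG00000030591.17, chromosome 7, 29174188 to 29180701), a structural lid subunit, measured 369, 345 and 332 CPM in Control and 1704, 1643 and 1838 CPM in MoS2. Its log2 fold change of 2.31 ± 0.07 was the highest in the family, and 1.54 under library totals. Psmd11 (ENSMUSG00000017428.16, chromosome 11, 80428615 to 80473248), which contributes to the junction of lid and base, measured 95.2, 95.3 and 100.1 CPM and 464, 454 and 489 CPM, a log2 fold change of 2.28 ± 0.06. In these 2 genes the spread within a group was small beside the gap between the groups.

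Psmd14 (ENSMUSG00000026914.15, chromosome 2, 61711694 to 61800376) is the metalloprotease of the lid that cuts ubiquitin chains off the substrate. It measured 88.5, 67.5 and 67.9 CPM in Control and 231, 218 and 247 CPM in MoS2, a log2 fold change of 1.63 ± 0.10. The first Control library was higher than the other two but still well under every MoS2 library. Psmd7 (ENSMUSG00000039067.5, chromosome 8, 107580381 to 107588464), the catalytically inactive partner of Psmd14, went from 63.5, 59.8 and 55.6 CPM to 75.0, 70.7 and 76.5 CPM, only 0.31 ± 0.07 on the log2 scale. Under library totals Psmd7 was called lower at -0.46 and Psmd6 likewise, at -0.42 against 0.35 under TMM. Psmd7 also did not pass once the length and GC trend was removed, at 0.10. The other lid subunits, Psmd12, Psmd3 and Psmd13, had log2 fold changes of 1.34, 1.05 and 1.02. Within each library the level of Psmd8 per kilobase was 4.29, 4.27 and 4.41 times that of Psmd7 in Control and 16.8, 17.2 and 17.8 times in MoS2.

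The unequal changes altered the order of the subunits. On the scale of CPM per kilobase of exon, the median over the 31 core and cap genes was 33.8 in Control and 73.5 in MoS2. Psmd8 ranked first in both groups, at 114 ± 6.11 in Control and 565 ± 32.7 in MoS2 (SD, n = 3), or 3.37 and 7.70 times the median. Psmd11 moved from rank 29 to rank 16, at 15.2 and 73.5, and Psmb7 from 30 to 20, at 15.2 and 54.0. In the other direction Psmc4 went from rank 16 to 27, at 33.8 and 42.0, Psmd7 from 20 to 29, at 26.4 and 32.8, and Psmd6 from 23 to 30, at 20.8 and 26.5. Psmd1 ranked last in both. Neighbouring ranks were often closer than the spread between libraries, as for Psmd11 and Psmb7 in Control.

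**Figure D4:**
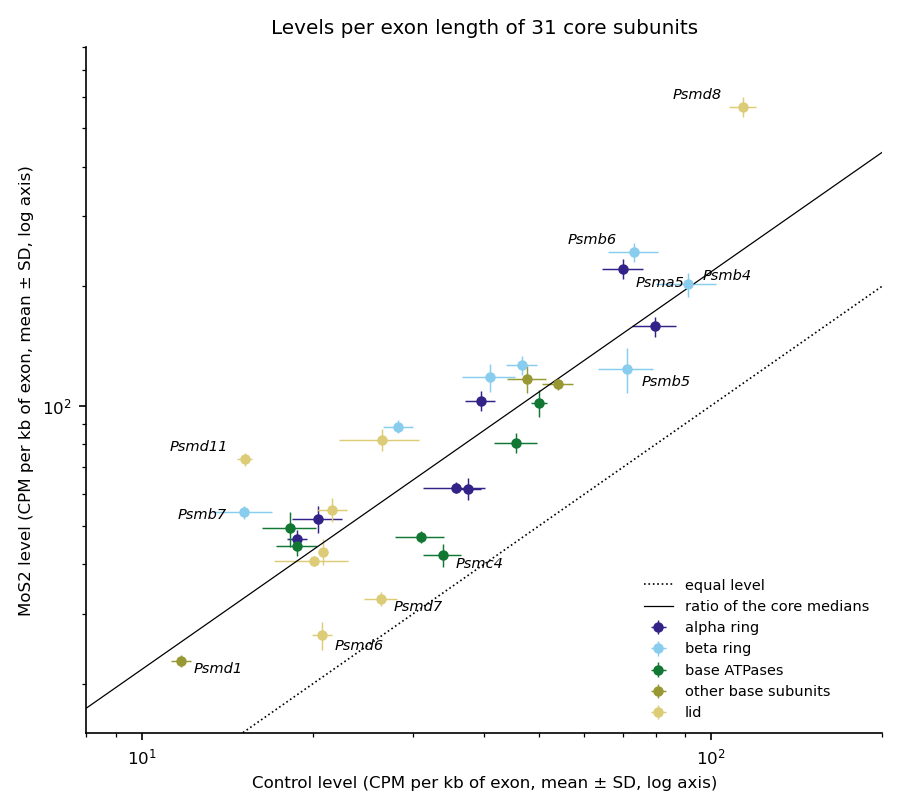
Level of each of the 31 core and cap subunit genes in MoS2 (vertical axis) against Control (horizontal axis), in CPM per kilobase of exon on log axes, as mean and SD of 3 libraries. All points lie above the line of equal levels; Psmd8 is the point at 114 and 565, and Psmd11 has moved from the low end to the middle at 73.5.

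The SD of the log2 levels per kilobase over these 31 genes was 0.865, 0.857 and 0.841 in the Control libraries and 1.02, 1.01 and 1.03 in the MoS2 libraries. That spread was larger in every MoS2 library, by 0.166 between the group means. Psmd8 accounted for a large part of it: without this gene the difference was 0.0831. Measured by the median absolute deviation, which gives little weight to single genes, the difference was -0.00034. The levels of the 31 genes in the 2 groups had a Spearman correlation of 0.837 and a Pearson correlation of 0.872 on the log2 scale; this is across genes, which are not independent replicates.

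As a group the assembly chaperones had smaller fold changes than the subunits. Psmg1 to Psmg4 guide the building of the alpha ring, and Psmd5, Psmd9 and Psmd10 that of the base. All 7 were called higher under TMM with a median log2 fold change of 0.62, which turned to -0.15 under library totals. The medians of all tested genes were -0.08 and -0.85. Of all genes 38.3% were called higher under TMM, and 18.0% higher and 67.7% lower under library totals. Psmg4 (ENSMUSG00000071451.10, chromosome 13, 34162964 to 34178173) changed most, from 14.1, 19.7 and 16.0 CPM in Control to 31.3, 35.8 and 40.8 CPM in MoS2, or 1.12 ± 0.13. Its groups were separate, but the call was lost after removal of the length and GC trend, at 0.22. Psmg1 (ENSMUSG00000022913.16, chromosome 16, 95979933 to 95990960) changed least, from 24.9, 25.0 and 24.1 CPM to 31.9, 27.2 and 30.5 CPM, or 0.28 ± 0.09. Under library totals Psmg1, Psmg2 and Psmg3 were called lower at -0.50, -0.46 and -0.39. The calls of Psmg1 and Psmg3 also rested on single libraries: Psmg1 lost its call without the first MoS2 library, and Psmg3 without the second Control, the second MoS2 or the third MoS2 library. Of the base chaperones, Psmd5 had 1.08, Psmd9 0.88 and Psmd10 0.62. Under library totals Psmd5 was called higher at 0.30, while Psmd9 and Psmd10 were not called, at 0.10 and -0.15. After removal of the length and GC trend Psmg1 was called lower at -0.29, and Psmg2 and Psmd10 were not called at -0.17 and -0.090. In that setting Psmd5, Psmd9 and Psmg3 were called higher at 1.21, 1.16 and 0.38. The median of all 7 chaperones was then 0.22. That of Psmd5, Psmd9 and Psmd10 was 1.16, close to 1.22 for the 19S base and lid.

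Psme3 and Psme4 encode alternative activators that cap the core in place of the 19S particle and act mainly in the nucleus. Both were lower in MoS2. Psme3 (ENSMUSG00000078652.9, chromosome 11, 101316213 to 101323537) measured 118, 117 and 118 CPM in Control and 106, 103 and 101 CPM in MoS2, or -0.19 ± 0.06 on the log2 scale. Psme4 (ENSMUSG00000040850.17, chromosome 11, 30771726 to 30880361) measured 86.9, 84.9 and 85.6 CPM and 72.8, 77.5 and 72.0 CPM, or -0.21 ± 0.06. The differences were small, but neither pair of groups overlapped, and under library totals the log2 fold changes were -0.96 and -0.98. The call of Psme3 was lost with DESeq2 and that of Psme4 after removal of the length and GC trend, at -0.08. Psmf1 (ENSMUSG00000032869.15, chromosome 2, 151715812 to 151744186), an inhibitor of the core, went from 27.8, 28.3 and 27.6 CPM to 32.8, 35.8 and 34.2 CPM, or 0.30 ± 0.08, and was lower under library totals at -0.47.

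The 2 remaining members carry the symbol but no place in the particle as it is usually drawn. Psmc3ip (ENSMUSG00000019303.14, chromosome 11, 101091823 to 101095436) is best known as a factor of meiotic recombination and measured 6.72, 7.73 and 7.41 CPM in Control and 9.10, 7.94 and 9.14 CPM in MoS2, a difference not called at 0.26 ± 0.14 (called lower under library totals, at -0.51). Its lowest MoS2 library was just above its highest Control library. Psme2b (ENSMUSG00000078153.3, chromosome 11, 48945354 to 48946190) is a near copy of Psme2. It had 43, 73 and 76 counts in Control and 14, 5 and 18 in MoS2, a log2 fold change of -1.55 ± 0.39. Psme2 went the other way. How the counting divided reads between the copies was not tested, so the Psme2b value is uncertain. Exons of 11 members share bases with another gene, in 4 cases (Psmb5, Psmd1, Psmg3 and Psme2b) on the same strand. Pseudogenes named after a member took almost no reads: 4 such genes had 3 counts in all.

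The inducible counterparts that the rule left out did not move as 1 block. Psmb8, Psmb9 and Psmb10 replace Psmb5, Psmb6 and Psmb7 in the immunoproteasome, and Psme1 and Psme2 form its activator. Psmb8 rose from 40.1 ± 4.23 to 81.4 ± 4.67 CPM (SD, n = 3), a log2 fold change of 1.02 ± 0.09 with an adjusted p of 7.9e-08 by edgeR. Psmb9 fell from 22.4 ± 2.96 to 15.8 ± 1.20 CPM, a log2 fold change of -0.50 ± 0.12 with an adjusted p of 0.0014 by edgeR. Psmb10 was 31.8 ± 2.04 CPM in Control and 33.6 ± 3.09 CPM in MoS2 and did not pass (edgeR adjusted p = 0.41), but was called lower under library totals, at -0.69. Psme1 and Psme2 rose by 1.07 ± 0.07 and 1.53 ± 0.08 on the log2 scale, with edgeR adjusted p-values of 7.7e-09 and 6.9e-10, and stayed higher under library totals at 0.30 and 0.75. Psmb8 and Psmb9 each share exon bases with a neighbouring gene, and their counts are uncertain to that extent.

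Set against these counterparts within each library, per kilobase of exon, the 3 catalytic positions differed. Psmb6 stood at 11.9, 11.4 and 12.8 times Psmb9 in Control and 55.0, 58.6 and 55.8 times in MoS2. Psmb7 stood at 0.869, 0.742 and 0.826 times Psmb10 in Control and 2.51, 3.03 and 2.71 times in MoS2. For Psmb5 against Psmb8 the ratios were 6.21, 5.36 and 6.49 in Control and 4.90, 4.92 and 5.58 in MoS2, and these groups overlapped. Among the activators, Psme2 stood at 0.983, 0.926 and 0.822 times Psme3 in Control and 2.83, 2.82 and 3.30 times in MoS2, and Psme1 at 0.761, 0.836 and 0.793 times and then 1.93, 1.75 and 2.04 times. These pairs were set side by side after the single values had been seen, and the ratios carry no test.

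**Figure D5:**
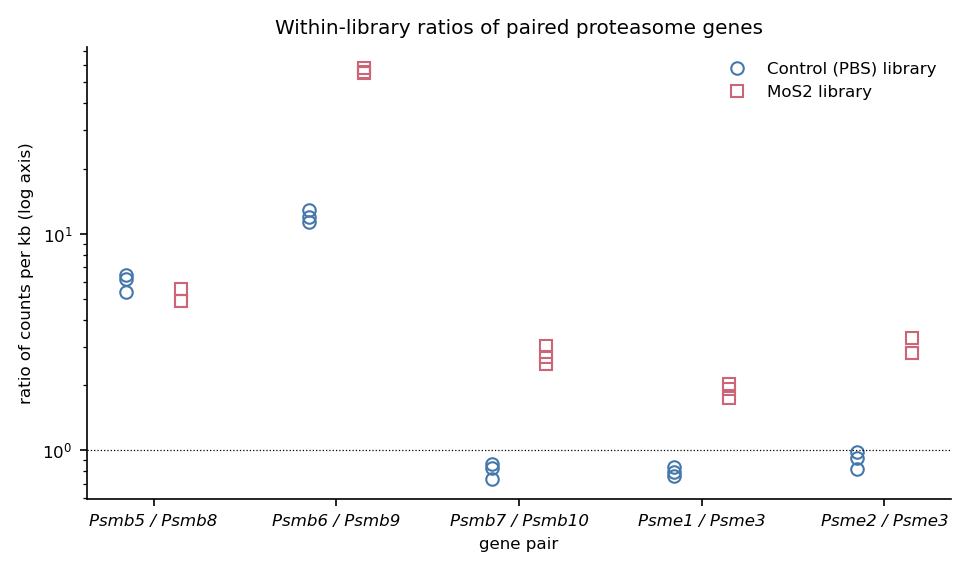
Ratio of the levels per kilobase of 2 genes within the same library (vertical axis, log scale) for each gene pair on the horizontal axis, 1 point per library, Control and MoS2. Psmb6 over Psmb9 moved from 12.0 to 56.5 on average, whereas the Psmb5 over Psmb8 points of the groups overlap.

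Of 40 other genes of the pathway that were tested, 25 were higher, 9 lower and 6 not called by the edgeR test. The shares over all genes were 38.3% higher and 42.4% lower. Under library totals 16 of the 40 were higher, 20 lower and 4 not called, beside 18.0% and 67.7% over all genes. Proteins bound to the particle gave 7 higher and 1 lower of 10 (5 and 5 under library totals). Sem1, the smallest lid protein, whose symbol does not carry the prefix, rose from 58.2 ± 15.5 to 247 ± 42.5 CPM, or 2.09 ± 0.16 on the log2 scale (edgeR adjusted p = 3.2e-08). Adrm1, the ubiquitin receptor on Psmd2, rose by 0.58 ± 0.07 (edgeR adjusted p = 2.2e-06) but was lower under library totals, at -0.19. Pomp, the maturation factor that helps join the precursors of the core, rose from 46.8 ± 5.57 to 198 ± 13.6 CPM, or 2.08 ± 0.09 (edgeR adjusted p = 8.1e-11). Its change was thus larger than that of any chaperone with a Psm symbol.

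Of 12 genes known to control proteasome gene expression, 5 were higher and 6 lower, near the shares of all genes called (38.3% and 42.4%). Under library totals 1 was higher and 8 lower, where 18.0% and 67.7% of all genes were called. Nfe2l1, the factor that raises subunit transcription when proteasome activity falls short, fell from 365 ± 11.1 to 267 ± 4.58 CPM, or -0.45 ± 0.06 on the log2 scale (edgeR adjusted p = 6.7e-06). That call was lost after removal of the length and GC trend, at -0.11. Ddi2, the protease that releases Nfe2l1, had -0.43 ± 0.08, and Ngly1, which removes sugars from it, 0.61 ± 0.10 (edgeR adjusted p-values 0.0003 and 8.1e-05). Ngly1 was at -0.16 under library totals and not called. Nfe2l2, the related factor of the oxidative stress response, fell by 0.77 and its inhibitor Keap1 by 2.11 on the log2 scale (edgeR adjusted p-values 8.9e-08 and 6.1e-11). Mafk, a small partner protein of both factors, rose by 2.42 ± 0.07 (edgeR adjusted p = 3e-12). Fold changes of mRNA do not show the activity of these factors, which is set largely after translation.

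Genes that supply or deliver ubiquitin gave 9 higher and 1 lower of 12, beside 38.3% and 42.4% of all genes, and 6 higher and 5 lower under library totals, beside 18.0% and 67.7%. Their median log2 fold change was 0.98 under TMM and 0.21 under library totals, beside -0.08 and -0.85 over all tested genes.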

How the data were processed

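Per the labels, RNA was sequenced from 6 RAW264.7 libraries. The deposited file holds whole-number read counts per gene; per the submitters' processing notes the authors used fastp 0.20.0, HISAT2 2.1.0 and featureCounts 1.6.1. Those notes name GRCh38, a human build, whereas the gene identifiers and coordinates in the deposited file are those of mouse GRCm38, used here. The sources used here do not state the strand setting or the treatment of multiply mapped reads. Identifiers were matched to GENCODE M21 without version. Counts were fitted with edgeR 4.0.16 in R 4.3.3 (TMM, filterByExpr, quasi-likelihood F test over all genes, Benjamini-Hochberg adjustment, threshold 0.05); SE is the log2 fold change over the root of F. The fit was tested on simulated data. Alternatives were DESeq2 1.42.0, limma-voom (limma 3.58.1), other scalings, no filter, a length and GC trend, a replicate block and leaving out each library. The members and lists were chosen with earlier results of these data known. Full values are given for Psmb5, Psmb6, Psmb7, Psmd14, the extremes of each role group, and related genes with the largest changes or a direct role, some of which are not reported here; Psmd11, Psme3 and the gene ratios were added after their values were seen. At the depth of these libraries every core and cap subunit had at least 847 counts in each.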

Additional observations from a re-analysis of the deposited data

How the results depend on the processing

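The direction of each value below depends on scaling or length. With library totals alone, log2 fold changes turned negative for the assembly chaperones' median (-0.15), Psma4 (-0.047), Psmc3 (-0.17), Psmc4 (-0.46), Psmd6 (-0.42), Psmd7 (-0.46), Psmd10 (-0.15), Psmg1 (-0.50), Psmg2 (-0.46), Psmg3 (-0.39), Psmf1 (-0.47), Psmc3ip (-0.51), Psmb10 (-0.69), Ngly1 (-0.16) and Adrm1 (-0.19). The macrophage markers Adgre1 (-0.71) and Ptprc (-0.74) turned negative as well. Members called were then 25 higher and 12 lower, related genes 16 and 20, all genes 2334 and 8786, and the members' median was 0.26. It was 0.91 with upper-quartile factors and 0.84 with the length and GC trend removed, where Psmd10 (-0.090), Psmg1 (-0.29), Psmg2 (-0.17), Psmc3ip (-0.13), Psmb10 (-0.14) and the median of members outside the core and cap (-0.08; -0.46 with library totals) turned negative. The cause was not tested. The replicate numbers did not pair the libraries (same-number correlations -0.14 to -0.01). The replicate block gave 40 members higher, 3 lower and a median of 1.04, and changed no named gene's call. The block with the length and GC trend removed gave 0.84, with Psmd10 at -0.087, Psmg1 at -0.29 and Psmg2 at -0.17. The difference in spread between subunits was 0.236 per longest coding transcript, -0.000339 as a median absolute deviation, and 0.0831 without Psmd8, a choice made after seeing the data.

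Leaving out each library in turn gave 39 to 40 members higher, 3 lower and a median of 1.01 to 1.08, 24 to 25 related genes higher and 9 lower, 4757 to 4951 genes higher and 5231 to 5435 lower, and a difference in spread of 0.159 to 0.171. Psmg1 lost its call without the first MoS2 library (edgeR adjusted p = 0.056). Psmg3 lost it without Control library 2, MoS2 library 2 or MoS2 library 3 (edgeR adjusted p = 0.12, 0.148 and 0.051). Psmg1, Psmg2, Psmg3 and Psmf1 lost theirs with upper-quartile factors and with no filter, and Psme3 with DESeq2 (DESeq2 adjusted p = 0.064). Depth limits Psma8 and Psme2b most, and counts in 3 libraries a group limit the precision of all values.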

Other observations

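The median longest coding transcript was 1561 bases for members and 3089 bases for the 11168 tested coding genes, members included, while the median GC content was 49.4% and 49.7%. The median Control level was 73.9 CPM for members and 30.6 CPM for all. Across the 11168 genes the log2 fold change had a Spearman correlation of -0.30 with transcript length, and across the 44 tested members of -0.01. Both are across genes, which are not independent replicates. The trend removed above was on exon length, not on this transcript length. The 45 genes lie on 16 chromosomes, with 10 on chromosome 11, 6 on chromosome 2 and 4 on chromosome 14.

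In 28 of the 31 core and cap subunits the first Control library was the highest of the 3; these genes vary together within a library and are not independent. The median coefficient of variation between replicates was 7.51% in Control and 5.84% in MoS2.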
